A study of Mus musculus with 21 samples.

Results

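Gene expression in B220+ cells grown from Bach2-vector progenitors was compared with that in control-vector multipotent progenitors (MPPs), bone marrow cells that can still form all blood lineages. The 6 arrays were selected by sample title from the 21 arrays of the series, which holds 7 groups of 3, and all non-control probes were used. The other groups were common lymphoid progenitors, follicular B cells and MPPs that carried the Bach2 vector and were sorted on GFP alone.

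All 6 samples started as MPPs of wild-type mice (lineage-negative, c-kit+, Sca-1+ and Flt3mid), with the cells of 4 mice pooled for each experiment. The progenitors were kept overnight in SCF at 50 ng/ml, IL-3 at 5 ng/ml and IL-6 at 10 ng/ml and then spin infected with a retrovirus. Control cells received the MSCV vector with GFP alone, spent 2 days in a multilineage culture and were sorted for GFP. The B220+ cells received a vector with Bach2 and GFP, spent 24 h in the multilineage culture and a further 6 days in a B-lineage culture, and were sorted for GFP and B220. Vector, culture, length of culture and sort differ together and cannot be told apart, so every difference given here is between these preparations as a whole. The labels do not say that each replicate is a separate experiment, and p-values measure the spread between these samples, which may be partly technical. In each group Y-linked genes were near background in replicate 3 and not in replicates 1 and 2, so the spread is not technical alone. The sources used here name neither sex nor age.

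Bach2 is a repressor of the basic leucine zipper family that binds DNA with small Maf proteins, at sites related to those used by the oxidative-stress activator Nrf2. B220 is an isoform of CD45, encoded by Ptprc, and is carried by B-lineage cells and also by plasmacytoid dendritic cells and some activated lymphocytes. Early B-lineage commitment runs through Ebf1 and Pax5, which switch on the recombination enzymes, the surrogate light chain and the signalling chains of the pre-B receptor.

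The 6 arrays were of similar quality, and replicate 3 of the B220+ cells stood apart. Of the spots, 62.6% to 71.5% were well above background on the B220+ arrays and 70.5% to 80.0% on the control arrays. Across probes, B220+ replicates 1 and 2 correlated at 0.987 with each other and at 0.950 and 0.948 with replicate 3, against 0.974 to 0.989 among control arrays. All 3 B220+ arrays lay on slide 1 with control replicate 1, while control replicates 2 and 3 lay on slide 2. Slide was therefore partly confounded with group. Values with the slide as a block or within slide 1 are given beside many of the calls they changed, not all.

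**Figure D1:**
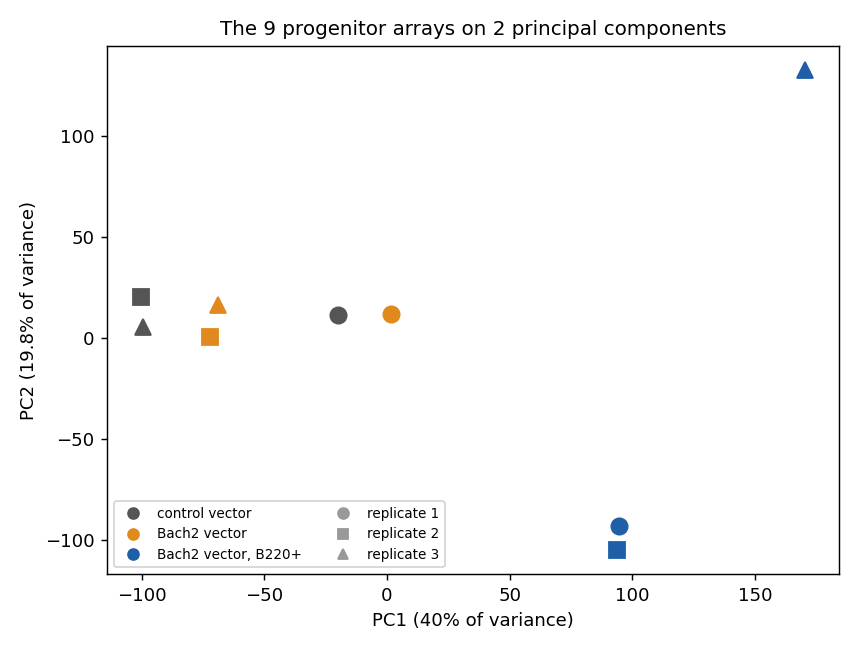
The 9 progenitor arrays are plotted on their first and second principal components (arbitrary units; percentages are shares of the variance), coloured by group and shaped by replicate number. The B220+ arrays lie at 93.9 to 170.6 on the first component and the control arrays at -100.52 to -19.97. Slide also differs along it. Control replicate 1, on slide 1, lies at -19.97, and replicates 2 and 3, on slide 2, at -100.52 and -99.37. Bach2-vector replicate 1, on slide 1, lies at 1.69, and replicates 2 and 3, on slide 2, at -72.27 and -68.82. On the second component B220+ replicate 3 lies at 132.45 and B220+ replicates 1 and 2 at -93 and -105.02.

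Of 16166 genes tested, each by its probe with the highest mean, 616 (3.81%) were higher and 916 (5.67%) lower in B220+ cells at a Benjamini-Hochberg adjusted p under 0.05 in limma, 9.48% in all. Over all 40332 probes tested, 1202 (2.98%) were higher and 1620 (4.02%) lower, 7% in all, so that 42.6% of the 2822 calls were rises. Values are log2 signal minus the array's 75th percentile, and differences are B220+ minus control. The 3 values of a group lay wholly on one side of the other's for 35.3% of genes and for all 1532 genes that passed, of which 1509 differed at least 2-fold. Median residual SD was 0.48. The median difference of all genes was -0.27, and the split of calls depended on the scaling: with each array's median in place of its 75th percentile the median over probes moved from -0.29 to 0.02 and 65.2% of the calls were rises, with quantile normalization 53.1%, with the slide as a block 53.4% and within slide 1 57%. The number of probes that passed was 980 without control replicate 2, 1349 without control replicate 3, 1879 without B220+ replicate 1, 1520 without B220+ replicate 2, 2360 with the slide as a block and 751 within slide 1. Among 121 passing genes of the lists and the naming rule, 104 could be tested with each of the 6 arrays left out in turn, and 64 of these passed each time; 60 of the 121 passed within slide 1. Without control replicate 1 and without B220+ replicate 3, 2920 and 3648 probes passed. List counts below are to be read against the 3.81% of all genes that rose and the 5.67% that fell. The range after a list's median is that of its medians with 1 array left out. Second probes of Foxo1, Cat, Gstm1 and Siglecg, named below by their main probes as passing, differed in the same direction without passing (1.78, -1.56, -2.21 and 1.04).

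Bach2 itself did not differ at its main probe. That probe read -3.87, -2.96 and -2.15 in control cells and -2.75, -2.49 and -4.10 in B220+ cells, a difference of -0.12 (SE 0.61, adjusted p = 0.915). In GFP-sorted Bach2-vector MPPs it read -0.92, -2.03 and -2.57. A second Bach2 probe, well above background on 1 of 3 control arrays, read -8.57, -7.11 and -6.34 in control cells and -5.12, -5.02 and -1.54 in B220+ cells (difference 3.45, SE 1.07, adjusted p = 0.0914), with no overlap between groups. Where these probes lie relative to the insert of the vector is not given in the sources used here, so they do not check the labels. Bach1, the related repressor, had a difference of -0.61 (adjusted p = 0.51).

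B-lineage genes were divided: a set of early lymphoid and B-biased genes rose strongly, whereas the genes that define committed pro-B cells did not pass or were not tested. Dntt, terminal deoxynucleotidyl transferase, which adds bases at recombining junctions, read -1.93, -1.22 and -1.51 in control cells and 5.41, 5.67 and 5.65 in B220+ cells. It rose by 7.13 (SE 0.26, adjusted p = 1.85e-05), the groups lay far apart, and the difference was 7.51 within slide 1. Blnk, the adaptor that couples the pre-B and B-cell receptor to downstream signalling, read -4.44, -4.62 and -4.12 in control cells and 3.23, 3.23 and 2.39 in B220+ cells (difference 7.34, SE 0.65, adjusted p = 0.000518). Dntt and Blnk were the members that passed of 13 tested (15.4%) on the list of pre-B receptor, recombination and immunoglobulin genes, whose median difference was -0.04 (-0.26 to 0.38). Bulk RNA cannot tell apart a change in the share of cells that carry a transcript from a change per cell, here or in any result below.

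The other members of that list did not pass. Xrcc4, a factor of end joining, differed by -0.84 (adjusted p = 0.12) with no overlap between groups. With the slide as a block Xrcc4 did pass, with a difference of -1.19 (adjusted p = 0.0374). Vpreb1, part of the surrogate light chain, read -1.10, -0.47 and -0.03 in control cells and -0.71, 0.37 and -1.90 in B220+ cells. Its adjusted p was 0.84 and the groups overlapped. Igll1, the other surrogate light-chain gene, differed by 0.41 (adjusted p = 0.42), and the receptor signalling chains Cd79a and Cd79b by -0.38 and 0.43 (adjusted p = 0.72 and 0.36). The recombinase gene Rag2 differed by 0.12 (adjusted p = 0.92). Rag1 was not tested: its probe was well above background on 2 of 3 B220+ arrays, at -5.24 and -4.39, and on 0 of 3 control arrays.

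Among 19 tested B-lineage transcription factors, 6 rose (31.6%) and 0 fell, with a median difference of 1.08 (0.75 to 1.22). Spib, an Ets factor of B cells and plasmacytoid dendritic cells, read -4.01, -3.64 and -3.45 in control cells and 1.40, 1.03 and 0.78 in B220+ cells, a rise of 4.77 (SE 0.47, adjusted p = 0.00075). Bcl6, the repressor best known from germinal-centre B cells, read -1.54, -2.85 and -1.97 in control cells and 1.14, 1.38 and 1.45 in B220+ cells (difference 3.44, SE 0.51, adjusted p = 0.0049). Neither gene's groups overlapped. Mef2c, a lymphoid-priming MADS-box factor, rose by 2.23 (SE 0.34, adjusted p = 0.00602). Irf8, a factor shared by B cells, dendritic cells and monocytes, rose from 3.85, 3.80 and 4.01 to 5.61, 6.06 and 5.29 (adjusted p = 0.00942). Foxo1 and Bcl11a, both needed for early B-cell development, rose by 1.53 and 1.50.

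The defining factors of the lineage were not among the 6. Pax5 read -5.30, -4.89 and -4.62 in control cells and -5.71, -5.63 and -6.07 in B220+ cells (difference -0.86, adjusted p = 0.13), and a second Pax5 probe differed by 0.89 (adjusted p = 0.316). Ebf1 was not tested, being well above background on 0 of 3 control and 1 of 3 B220+ arrays. Irf4 differed by 1.59 (adjusted p = 0.069), and the broadly expressed factors Ikzf1 and Tcf3 by 0.51 and 0.31 without passing. The list had 4 rises without control replicate 2, as Irf8 (adjusted p = 0.0523) and Bcl11a (0.0725) no longer passed; Bcl11a also failed without control replicate 3 or B220+ replicate 1. With the slide as a block 6 rose, and within slide 1 Spib, Bcl6 and Mef2c passed and the other 3 did not.

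Of 25 tested B-cell surface and signalling genes, 7 rose (28%) and 0 fell, with a median difference of 0.82 (0.39 to 0.91). Ly6d, a surface protein that marks B-biased lymphoid progenitors, read -2.77, -3.11 and -1.08 in control cells and 3.83, 3.77 and 2.66 in B220+ cells (difference 5.74, SE 0.62, adjusted p = 0.00121). Cd72, an inhibitory co-receptor of B cells, read -1.87, -0.27 and -0.34 in control cells and 2.64, 3.36 and 3.27 in B220+ cells (difference 3.92, SE 0.44, adjusted p = 0.00148). Both were separated on every array. Fcrla, an intracellular Fc receptor-like protein of B cells, rose by 4.58 from a probe that was well above background on 1 of 3 control arrays (adjusted p = 0.00647). Bank1, a B-cell signalling scaffold, rose by 3.34 (adjusted p = 0.00808) and passed at its second probe too (adjusted p = 0.0036). The inhibitory receptors Btla, Siglecg and Cd22 rose by 2.40, 1.35 and 1.26. Without control replicate 2, without control replicate 3 and without B220+ replicate 1 the list had 4 rises each, these 3 receptors not passing (adjusted p of 0.0628 to 0.182), and without B220+ replicate 2 it had 5; Siglecg also failed without B220+ replicate 3 (0.0655). Within slide 1 Ly6d and Cd72 passed, and with the slide as a block Siglecg and Btla did not.

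Ptprc and Ms4a1, which encode antigens by which B cells are recognised, gave no call. Ptprc, which encodes B220 among other CD45 isoforms, read 0.56, 0.81 and 0.73 in control cells and 1.29, 1.70 and 1.90 in B220+ cells. The groups did not overlap, the difference was 0.93 and the adjusted p 0.206; the files do not say which isoforms the probe detects. Ms4a1, which encodes CD20, was well above background on none of the 6 arrays. The summed linear signal of the 11 B-lineage markers, with each array's 75th percentile as 1, was 8.50 to 13.75 in control cells and 65.4 to 77.04 in B220+ cells. Of these 11, Dntt and Blnk rose and the others did not pass or were not tested. Dntt alone made up most of the sum in B220+ cells, so the sum does not show a general rise of these markers.

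**Figure D2:**
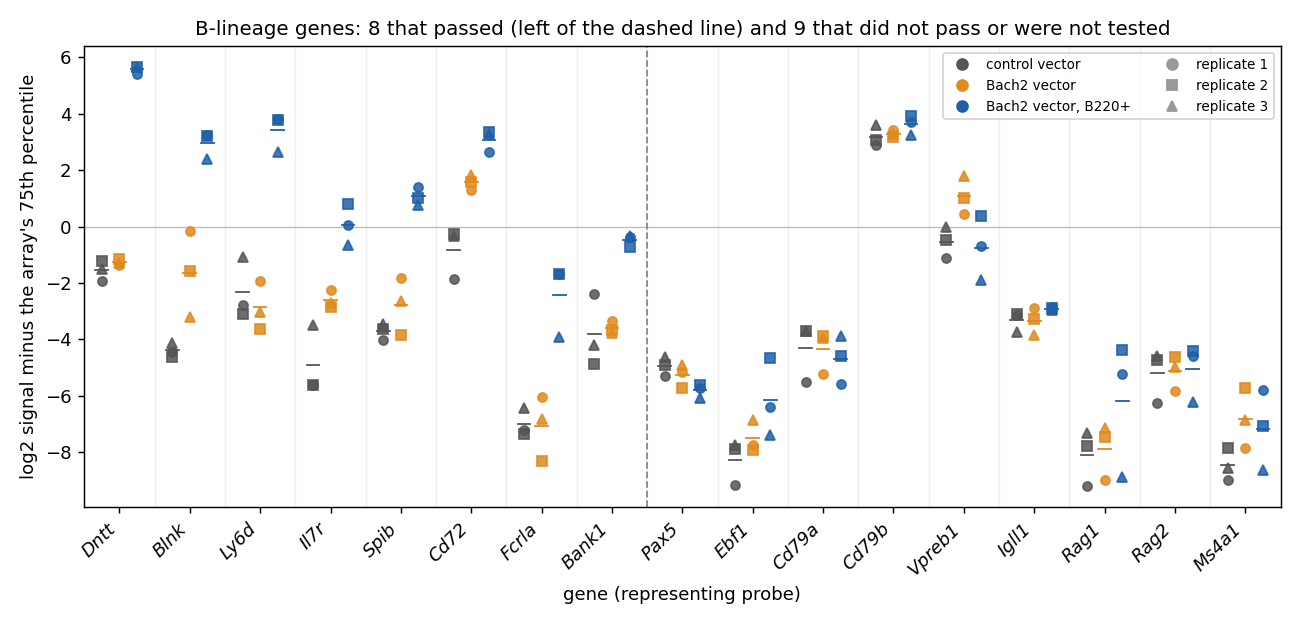
Signal of 17 B-lineage genes in each array (log2 signal minus the array's 75th percentile; points are arrays, shaped by replicate; short lines are group means of 3). Left of the dashed line the B220+ points of Dntt lie at 5.41 to 5.67 and the control points at -1.93 to -1.22; right of it lie the 9 genes that did not pass or were not tested, such as Pax5 with B220+ points at -6.07 to -5.63.

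Several genes of lymphoid priming and homing rose as well. Il7r, the receptor chain through which IL-7 supports early lymphocytes, read -5.62, -5.63 and -3.50 in control cells and 0.07, 0.79 and -0.65 in B220+ cells (difference 4.99, SE 0.60, adjusted p = 0.00195). Flt3, the cytokine receptor of lymphoid-primed progenitors, rose by 2.01 (adjusted p = 0.0254) at its main probe, while a second probe, well above background on all 6 arrays, differed by -0.21 (adjusted p = 0.68). These were the 2 rises among 14 tested genes (14.3%) of the lymphoid progenitor and IL-7 list, whose median was -0.04 (-0.09 to 0.13). Flt3 did not pass without control replicate 2, B220+ replicate 1 or B220+ replicate 2 (adjusted p of 0.0751 to 0.087).

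Of 11 tested homing and egress genes 3 rose (27.3%) and 0 fell (median 1.00, 0.60 to 1.32). Ccr7, the chemokine receptor that guides cells to lymph nodes, read -0.79, -0.72 and 0.40 in control cells and 3.87, 3.82 and 4.34 in B220+ cells (difference 4.38, SE 0.40, adjusted p = 0.00054). Ccr6, a chemokine receptor of B cells and some T cells, rose by 3.82 (adjusted p = 0.00563). Both receptors stood at similar values in GFP-sorted Bach2-vector MPPs, at 3.81, 2.83 and 2.99 for Ccr7 and 1.84, 1.36 and 1.68 for Ccr6. The differences between B220+ cells and those MPPs were 0.80 (adjusted p = 0.293) and -0.07 (adjusted p = 0.951). Klf2, a factor of lymphocyte trafficking, rose by 2.02 but did not pass without control replicate 2 or 3 or any of the B220+ replicates (adjusted p of 0.0529 to 0.137), nor within slide 1 (0.0868).

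Plasma-cell genes fell where they changed, with Sdc1 as the exception. Of 10 plasma-cell genes 3 fell (30%) and 1 rose (10%), with a median of -0.60 (-0.88 to -0.24). Ell2, an elongation factor of antibody-secreting cells, read -0.31, -0.25 and 0.06 in control cells and -3.33, -2.82 and -3.14 in B220+ cells (difference -2.92, SE 0.24, adjusted p = 0.000396). Fkbp11, a folding factor of the secretory pathway, fell by 4.56 and Xbp1, which drives that pathway, by 1.70. Sdc1, encoding the plasma-cell marker syndecan-1, rose by 2.49. Prdm1, the repressor that drives plasma-cell formation, differed by -1.22 (adjusted p = 0.21). Of 12 class II presentation genes 2 rose (16.7%) and 0 fell (median 0.50, 0.44 to 0.64): H2-Ob, part of a B-cell chaperone that modulates peptide loading, rose by 3.76 (SE 0.34, adjusted p = 0.000524), and the costimulatory gene Cd86 by 2.62. Cd86 did not pass without control replicate 2 or B220+ replicate 2 (adjusted p = 0.0585 and 0.055). Within slide 1 Ell2 and H2-Ob passed and Fkbp11, Xbp1, Sdc1 and Cd86 did not; with the slide as a block Sdc1 and Cd86 did not pass.

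Genes on the list of heme, iron and oxidative stress were lower in B220+ cells, and of those of heme and iron handling Hmox1 alone passed. Of 28 members tested 13 fell (46.4%) and 0 rose, against 5.67% of all genes that fell; 26 of 28 were lower, 22 did not overlap between groups (35.3% of all genes) and the median difference was -1.47 against -0.27 for all genes. With each array's median as the scale 8 fell and the list median was -1.16; with quantile normalization 13 fell, with the slide as a block 12, and within slide 1 7. With 1 array left out, 6 fell without control replicate 2, 8 without B220+ replicate 2, and without the other arrays 9 to 12.

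Srxn1, sulfiredoxin, which repairs oxidised peroxiredoxins, read 3.82, 3.69 and 3.19 in control cells and -2.22, -2.99 and -2.85 in B220+ cells. It fell by 6.25 (SE 0.35, adjusted p = 0.000129), and by 6.51 within slide 1. Slc7a11, the cystine importer that feeds glutathione synthesis, read 0.41, -0.86 and 0.02 in control cells and -7.94, -6.05 and -6.20 in B220+ cells, where it was well above background on 2 of 3 arrays (difference -6.59, SE 0.53, adjusted p = 0.000331). Gclm, a subunit of the enzyme that starts glutathione synthesis, read 3.07, 3.83 and 3.58 in control cells and -0.94, -1.62 and -0.49 in B220+ cells (difference -4.51, SE 0.38, adjusted p = 0.000405). None of these groups overlapped. Osgin1, an oxidative-stress-induced growth inhibitor, read 0.73, -0.42 and -0.94 in control cells and -5.12, -4.89 and -6.01 in B220+ cells (difference -5.13, SE 0.60, adjusted p = 0.00183). Me1, malic enzyme, which makes NADPH, read 1.00, 0.62 and -0.44 in control cells and -3.74, -5.23 and -7.84 in B220+ cells (difference -6.00, SE 0.93, adjusted p = 0.00626). Its B220+ values spread widely, and the call was lost within slide 1 (difference -6.60, adjusted p = 0.0981). Gsta4, a glutathione transferase, was not well above background on any B220+ array and was at least 5.18-fold lower, a bound set by the lowest signal well above background on each array (adjusted p = 0.000539).

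Smaller falls were seen in glutathione and NADPH enzymes and in Hmox1. Gsr, glutathione reductase, fell by 2.86 (adjusted p = 0.00249), Gstm1, a further glutathione transferase, by 2.23, G6pdx, the enzyme that opens the NADPH-making pentose pathway, by 1.94, and Cat, catalase, by 1.38. Hmox1, heme oxygenase and the classical target of the related repressor Bach1, read 1.87, 0.65 and 0.43 in control cells and -0.90, -1.17 and -0.44 in B220+ cells (difference -1.82, SE 0.39, adjusted p = 0.0265). Txnrd1, thioredoxin reductase, fell by 1.55 and Mafg, a small Maf partner, by 1.38. Of these, Gsr passed with each array left out. Hmox1 did not pass without control replicate 2 or B220+ replicate 1 or 2 (adjusted p of 0.0672 to 0.0915), and Cat and G6pdx did not without control replicate 2 or B220+ replicate 2 (0.0501 to 0.0718). Of the last 3, Gstm1 passed only without B220+ replicate 3, Mafg only without control replicate 1 and Txnrd1 only without B220+ replicate 2 or 3 (adjusted p of 0.0507 to 0.145 without the other arrays), and Mafg and Txnrd1 did not pass with the slide as a block. Nqo1, a quinone reductase, differed by -4.95 (adjusted p = 0.06), with 1 B220+ value left out as an outlier spot. Nfe2l2, which encodes Nrf2, differed by -0.47 (adjusted p = 0.3), and the iron-storage chain Fth1 by -0.23 (adjusted p = 0.52).

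GFP-sorted Bach2-vector MPPs, in the shorter culture, give values to set beside these. Against control cells 5 of the 28 members fell in them, Srxn1, Slc7a11, Gclm, Gsta4 and Me1. Srxn1 read -0.10, -0.85 and -1.10 there, below the control cells and above the B220+ cells. Slc7a11 and Me1 had means of -5.89 and -5.43, and the differences of B220+ cells from these MPPs were -0.84 (adjusted p = 0.38) and -0.18 (adjusted p = 0.93). Osgin1, at 0.95, -0.88 and -0.85, overlapped the control values, and B220+ cells differed from these MPPs by -5.08 (adjusted p = 0.00336). Between B220+ cells and these MPPs 2 members fell, Osgin1 and Srxn1, and 695 of 16166 genes passed (4.3%). These comparisons share their arrays with the main one.

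**Figure D3:**
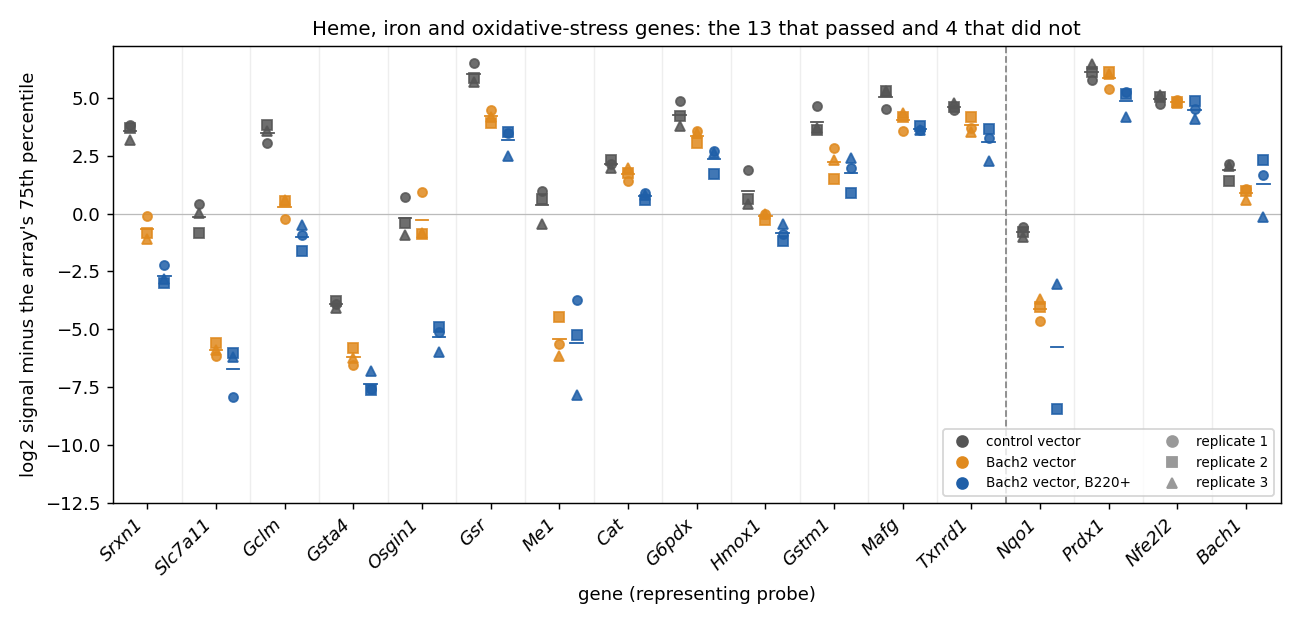
Signal of 17 heme, iron and oxidative-stress genes in each array (log2 signal minus the array's 75th percentile; points are arrays, shaped by replicate; short lines are group means). To the left of the dashed line are the 13 genes that passed, such as Srxn1 with control points at 3.19 to 3.82 and B220+ points at -2.99 to -2.22; to the right are 4 that did not.

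Promoters of these genes are shown because members of the list moved together and because Bach and small Maf proteins are known to bind one family of sites. The motif searched was TGANTCAGC on both strands, in RefSeq promoters of assembly GRCm38.p6 that run from 250 bases before to 50 bases after each start. It occurred in 390 of 32851 promoters (1.19%). Of the 28 list members 22 were matched by symbol, with 29 promoters, and 4 promoters held it, those of Srxn1, Osgin1, Me1 and Prdx1. The first 3 belong to genes that fell; Prdx1, a peroxiredoxin, differed by -1.26 (adjusted p = 0.081) at its main probe and fell by 1.25 at a second (adjusted p = 0.0404). TGANTCAGC was also in 1 of the 9 promoters found for the 12 largest falls (11.1%), that of Tbxas1, which is outside the list. It was in 0 of the 11 found for the 12 largest rises. The related letters TGACNNNGC, which can overlap the first motif, were in 11 of the 29 promoters and in 12.4% of all. They were in 6 of the 14 promoters of members that fell and in 5 of the 15 of members that did not pass. B-lineage genes that rose held them in 6 of 19 promoters (31.6%), so these letters were not particular to genes that fell. A match is a description of letters only. Capitals mark TGANTCAGC or its reverse complement, which begins 45 bases before the start of Srxn1 (chr2:152105274-152105573, plus strand), 99 before that of Osgin1 (chr8:119436897-119437196, plus strand), 6 before that of Me1 (chr9:86695865-86696164, minus strand) and 133 before that of Prdx1 (chr4:116685349-116685648, plus strand).
Srxn1 promoter: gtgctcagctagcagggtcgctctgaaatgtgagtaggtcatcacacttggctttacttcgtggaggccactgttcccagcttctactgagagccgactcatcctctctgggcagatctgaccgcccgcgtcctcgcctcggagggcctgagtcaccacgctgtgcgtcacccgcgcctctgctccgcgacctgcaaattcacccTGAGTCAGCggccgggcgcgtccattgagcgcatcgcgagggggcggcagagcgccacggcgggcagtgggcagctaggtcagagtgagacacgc
Osgin1 promoter: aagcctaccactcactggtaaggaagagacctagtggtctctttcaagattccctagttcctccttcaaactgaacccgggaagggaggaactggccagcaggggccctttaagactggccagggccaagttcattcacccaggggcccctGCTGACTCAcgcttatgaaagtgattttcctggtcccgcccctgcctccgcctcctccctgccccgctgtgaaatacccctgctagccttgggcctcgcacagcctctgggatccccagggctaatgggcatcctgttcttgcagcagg
Me1 promoter: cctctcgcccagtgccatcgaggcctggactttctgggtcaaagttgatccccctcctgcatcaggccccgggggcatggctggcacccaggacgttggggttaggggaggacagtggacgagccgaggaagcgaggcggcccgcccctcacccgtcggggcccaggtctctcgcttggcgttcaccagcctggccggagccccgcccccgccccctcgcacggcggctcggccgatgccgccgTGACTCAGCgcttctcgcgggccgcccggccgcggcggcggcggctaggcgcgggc
Prdx1 promoter: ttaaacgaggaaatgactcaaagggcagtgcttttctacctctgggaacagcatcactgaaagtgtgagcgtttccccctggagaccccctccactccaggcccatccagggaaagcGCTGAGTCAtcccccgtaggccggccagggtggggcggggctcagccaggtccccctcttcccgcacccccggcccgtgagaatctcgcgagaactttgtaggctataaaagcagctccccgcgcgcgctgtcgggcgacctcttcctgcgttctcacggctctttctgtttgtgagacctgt

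Spib gave the same reason to search the promoters of the B-lineage genes that rose. The letters GAGGAAGT, a site form read by Spi-B and its relative PU.1, were in 3.2% of all promoters. Of the 19 promoters found for 14 of these genes, 2 held them (10.5%), those of Cd72 and Btla. An Ebf1 motif was likewise in 2 of the 19, those of Cd22 and Foxo1, and in 0.904% of all. TGACNNNGC was in 6 of the 19, as given above. TGANTCAGC was in 0 and its shorter core in 1 (5.26%, against 7.81% of all). A share above that of all promoters was thus not particular to the Spi-B letters. In Cd72 (chr4:43454577-43454876, minus strand, GRCm38.p6) the GAGGAAGT match, in capitals, begins 49 bases before the start.
Cd72 promoter: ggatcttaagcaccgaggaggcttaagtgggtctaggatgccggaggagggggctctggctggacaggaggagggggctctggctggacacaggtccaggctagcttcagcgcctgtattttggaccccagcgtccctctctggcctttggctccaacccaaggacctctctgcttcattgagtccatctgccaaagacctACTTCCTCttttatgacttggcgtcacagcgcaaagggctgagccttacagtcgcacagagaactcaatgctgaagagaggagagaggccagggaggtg

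Neutrophil granule genes did not move together. Of 11 genes on the primary granule list 4 fell (36.4%) and 0 rose (median -0.22, -0.35 to -0.21). The list is not limited to granule proteins, and the receptor gene Clec5a is among its falls. Mpo, myeloperoxidase, read 6.77, 6.90 and 6.75 in control cells and 6.69, 6.59 and 6.90 in B220+ cells, overlapping ranges with a difference of -0.08 (adjusted p = 0.85). Ctsg and Elane, the granule proteases cathepsin G and elastase, both differed by -0.22 without passing. Prtn3, proteinase 3, read 5.16, 5.54 and 5.73 in control cells and 3.14, 3.08 and 4.09 in B220+ cells (difference -2.04, SE 0.32, adjusted p = 0.00676). Clec5a, a lectin receptor of myeloid cells, was not well above background on any B220+ array and was at least 22.2-fold lower (adjusted p = 0.00281). Ms4a3 and Cst7 fell by 1.38 and 1.09. Without control replicate 2 or control replicate 3 the list had 1 fall, as Ms4a3 and Cst7 did not pass and Clec5a did not meet the filter on dim probes, and within slide 1 it had 0 (adjusted p of 0.0585 to 0.329). Cst7 did not pass with the slide as a block either.

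Of 17 secondary and tertiary neutrophil genes 3 rose and 3 fell (17.6% each), with a median of -0.67 that ran from -0.81 to 0.17, the last without B220+ replicate 2. Camp, the antimicrobial cathelicidin, read -1.07, -3.24 and -1.41 in control cells and 2.66, 3.62 and 2.51 in B220+ cells (difference 4.84, SE 0.75, adjusted p = 0.00597). Ngp, a secondary granule protein, rose by 5.85 and Fcnb, the lectin ficolin B, by 2.99. Moving the other way, Mmp8, neutrophil collagenase, read 3.32, 1.70 and 2.11 in control cells and -2.73, -3.10 and -2.61 in B220+ cells (difference -5.19, SE 0.61, adjusted p = 0.00183). Padi4, which citrullinates histones, fell by 3.09 and Stfa1, a cysteine protease inhibitor, by 3.80. Ltf, lactoferrin, differed by 3.31 (adjusted p = 0.13), and S100a8, a calcium-binding protein of neutrophils, by 0.06. Within slide 1 none of the 3 rises passed (adjusted p of 0.0622 to 0.158). Stfa1 did not pass within slide 1, nor without control replicate 2 or B220+ replicate 1 or 2 (0.0527 to 0.0637).

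Monocyte, macrophage and myeloid receptor genes were lower where they changed, with a few exceptions. Of 23 monocyte and macrophage genes 4 fell (17.4%) and 1 rose (4.35%), with a median of -0.36 that ran from -0.54 to 0.09, the last without control replicate 3. Fn1, fibronectin, was the rise, from -1.64, -2.93 and -1.65 to 3.23, 3.16 and 2.77 (difference 5.12, SE 0.47, adjusted p = 0.000547). Ccl9, a chemokine of myeloid cells, fell by 2.77, Ccl6, another, by 3.06, and C1qc, a complement chain, was at least 21.1-fold and C5ar1, the C5a receptor, at least 3.86-fold lower. The macrophage markers Adgre1, Csf1r and Cd14 differed by -1.34, 1.05 and -0.18 and did not pass. Without B220+ replicate 3 the list had 6 falls and 2 rises, without control replicate 1 or 2 it had 2 falls and without control replicate 3 it had 1. C1qc and C5ar1 then did not meet the filter on dim probes, and Ccl6 did not pass without control replicate 2 or 3 or B220+ replicate 1 or 2 (adjusted p of 0.0585 to 0.0755). With the slide as a block Ccl6 did not pass (0.0656), and within slide 1 neither Ccl6 nor C5ar1 did (0.227 and 0.0839).

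Myeloid receptors gave 5 falls (21.7%) and 1 rise (4.35%) among 23, with a median of -0.77 (-0.89 to -0.23). Clec4d, an activating lectin receptor, read 4.12, 3.53 and 3.60 in control cells and -0.99, -1.11 and -0.47 in B220+ cells (difference -4.60, SE 0.47, adjusted p = 0.000884). The Fc receptor genes Fcgr2b and Fcgr3 fell by 2.82 and 2.90, Clec4e, a partner of Clec4d, by 2.49 and Il1r2, a decoy receptor for IL-1, by 1.59. Il6ra, a chain of the IL-6 receptor, rose by 1.72. Integrin alpha M, Itgam, differed by -0.04 (adjusted p = 0.93), and the G-CSF receptor Csf3r by 0.43 (adjusted p = 0.4). Without B220+ replicate 3 there were 8 falls and 0 rises; Il1r2 passed only without that array and Il6ra only without control replicate 1 (adjusted p of 0.0635 to 0.154 without the other arrays). Neither passed with the slide as a block, and within slide 1 Clec4e did not either (0.0631). Tfec, a factor of monocytes and macrophages, fell by 7.03 (adjusted p = 0.00337), the fall among 17 myeloid regulators, in which Egr1 and Klf4 rose by 2.58 and 3.02 and Spi1, encoding PU.1, and Cebpa differed by -0.58 and -0.45 without passing. Klf4 did not pass without control replicate 2 or B220+ replicate 1 or 2 (adjusted p of 0.0709 to 0.0833), nor with the slide as a block, and within slide 1 none of the 3 passed (0.0569 to 0.197).

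Genes of mast cells, basophils and eosinophils held the largest rise among the genes ranked, each by its main probe. Prg2, the major basic protein of eosinophil and basophil granules, read -8.08, -5.76 and -4.45 in control cells and 2.77, 2.33 and 3.45 in B220+ cells (difference 8.95, SE 0.88, adjusted p = 0.00075). Hdc, which makes histamine, read 1.15, 1.66 and 1.81 in control cells and 4.91, 5.42 and 5.81 in B220+ cells (difference 3.84, SE 0.31, adjusted p = 0.000347). Both were separated on every array and both passed within slide 1. Prg3, a relative of Prg2, rose by 6.65, Prss34, a basophil protease, by 6.93, and Il13, a type 2 cytokine, was at least 8.72-fold higher. In all, 5 of 23 tested members rose (21.7%) and 0 fell, with a median of 1.41; with the slide as a block 8 rose and within slide 1 4, Prss34 not passing.

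B220+ replicate 3 carried the highest values of this group. It was the highest B220+ array for 17 of the 23 members (73.9%), against 35.9% of all genes tested. Fcer1a, a chain of the IgE receptor, read -7.80, -2.94 and -2.50 in control cells and 3.25, -1.59 and 5.05 in B220+ cells (difference 6.65, adjusted p = 0.12). Prss34 read 3.04, 1.29 and 5.29 in the B220+ cells. The IgE receptor gene Ms4a2, the mast-cell protease gene Cpa3 and the shared factor Gata2 differed by 3.19, 2.08 and -0.52 and did not pass. With the slide as a block Fcer1a and Ms4a2 did pass, with differences of 10.62 and 5.01 (adjusted p = 0.0195 and 0.0388). The summed linear signal of the 7 markers of these cells was 6.70 to 18.45 in control cells and 51.65, 27.07 and 173.4 in B220+ replicates 1, 2 and 3; 2 of the 7 rose. Without replicate 3 the list's median was 0.54, against 1.13 to 1.79 without any other array, and 4 members rose, Prg2 by 8.65 and Hdc by 3.62. What part mast cells, basophils or eosinophils had in the results was not tested.

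**Figure D4:**
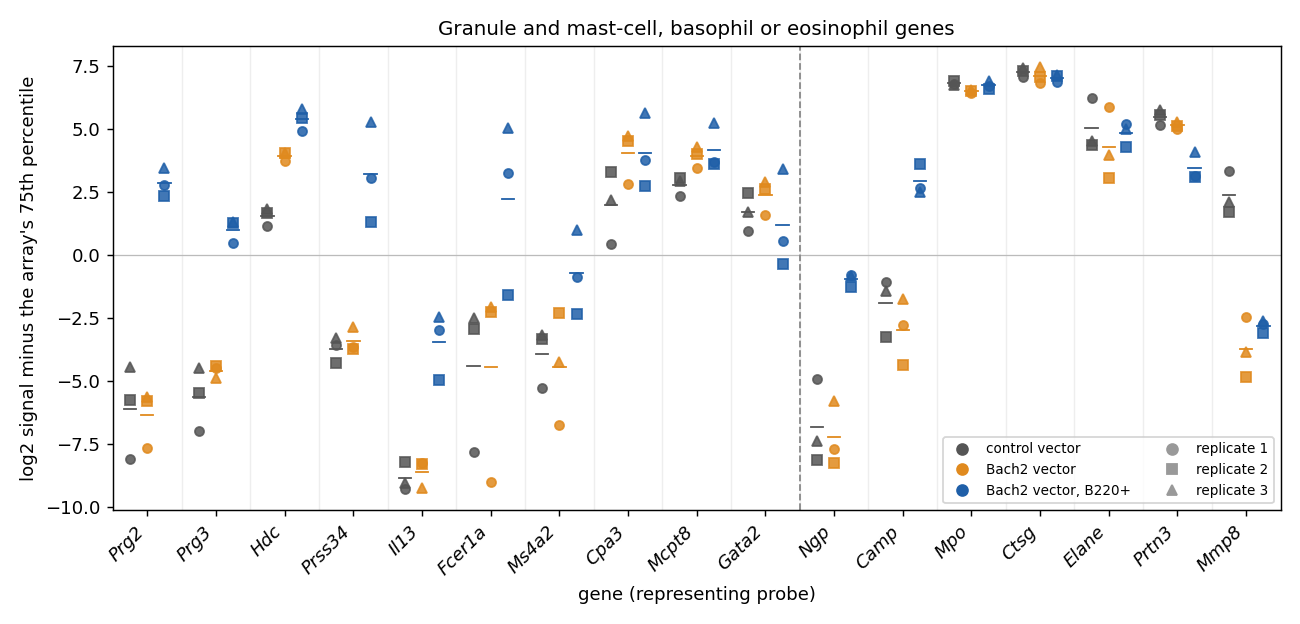
Signal of 10 mast-cell, basophil or eosinophil genes (left of the dashed line) and 7 neutrophil granule genes in each array (log2 signal minus the array's 75th percentile; points are arrays, shaped by replicate; short lines are group means of 3). B220+ points of Prg2 lie at 2.33 to 3.45 above control points at -8.08 to -4.45, whereas those of Mpo overlap.

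T-lineage and NK genes rose in part. Of 17 T-lineage genes 5 rose (29.4%) and 1 fell (5.88%). The median was 0.39, and ran from -0.02 without B220+ replicate 3 and 0.08 without control replicate 1 to 0.62. Cd2, an adhesion receptor of lymphocytes, rose by 6.00 at its main probe (SE 0.69, adjusted p = 0.00162). That probe read -6.69, -6.05 and -5.60 in control cells and -1.33, -0.68 and 1.65 in B220+ cells. A second Cd2 probe also passed (adjusted p = 0.000275) and read 1.51, 1.98 and 4.00 in B220+ cells. It was well above background on 0 of 3 control arrays, so its fitted difference of 10.54 rests on control values near background. Cd3g, a chain of the T-cell receptor complex, was at least 7.58-fold higher, Cd3d rose by 2.24, the factor Tcf7 by 2.72 and the kinase Zap70 by 2.34. Thy1, a surface protein of T cells and progenitors, fell by 2.28. The T-cell identity genes Cd3e and Bcl11b differed by -0.71 and -1.46 without passing (adjusted p = 0.15 and 0.24). The list had 3 rises without control replicate 2, Tcf7 and Zap70 not passing; Thy1, with 1 array left out at a time, passed only without B220+ replicate 3 (otherwise adjusted p of 0.0683 to 0.147). Within slide 1 Cd2 and Cd3g passed, and with the slide as a block Thy1 did not.

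Of 17 NK and innate lymphoid genes 4 rose (23.5%) and 0 fell (median 0.27). Without control replicate 1 there were 4 rises and 3 falls with a median of 0.09, and without B220+ replicate 3 the median was 0.89. Il18r1, the IL-18 receptor, read -8.91, -5.21 and -4.57 in control cells and 1.56, 2.06 and 1.53 in B220+ cells (difference 7.95, SE 1.12, adjusted p = 0.00396). Klrd1, an NK receptor chain, read -1.72, -0.76 and 1.02 in control cells and 5.21, 5.74 and 4.69 in B220+ cells (difference 5.70, SE 0.64, adjusted p = 0.00149). Klrk1, the receptor NKG2D, was at least 14.2-fold higher, and Il2rb, a chain of the IL-2 and IL-15 receptors, rose by 3.41. The NK factors Eomes and Tbx21 differed by 0.24 and 0.16 without passing, and Ncr1, the NK receptor NKp46, was not tested. The summed linear signal of the 6 NK markers was 0.52 to 2.40 in control cells and 26.0 to 54.0 in B220+ cells, and 12.7 to 23.9 in Bach2-vector MPPs. Only 1 of the 6 rose, Klrd1, which made up nearly all of the sum in B220+ cells. What part NK cells had in the results was not tested. Within slide 1, 3 passed and Il2rb did not (adjusted p = 0.0935).

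Dendritic-cell genes were mixed. Siglech, a lectin receptor of plasmacytoid dendritic cells, read 4.91, 6.05 and 6.10 in control cells and 5.47, 5.70 and 5.52 in B220+ cells, an overlap, with a difference of -0.12 (adjusted p = 0.86). A second Siglech probe did not overlap, at -4.17, -3.88 and -3.37 in control cells and -0.51, -1.11 and -1.17 in B220+ cells (difference 2.88, SE 0.40, adjusted p = 0.00376), so the probes disagree. The same held for Pacsin1, a membrane-bending protein, at -0.39 (adjusted p = 0.38) and 2.60 (adjusted p = 0.0169). Tcf4, a lineage factor of these cells, differed by -0.24 (adjusted p = 0.7) and at a second probe by 1.55 (adjusted p = 0.0728). Of 16 tested genes of these cells 3 rose (18.8%), Spib, Cox6a2 and Irf7, and Lair1 and Tlr7 fell (12.5%), with a median of -0.08 (-0.05 to 0.19). Cox6a2, a cytochrome oxidase subunit, rose by 4.70 (adjusted p = 0.00586), from 0.27, 1.39 and 2.58 to 5.77, 5.54 and 7.04. Irf7 did not pass without control replicate 1 or 2 or B220+ replicate 1 or 2, Lair1 without control replicate 2 or 3, and Tlr7 without any array but B220+ replicate 3 (adjusted p of 0.0544 to 0.166). A second Tlr7 probe differed by -0.28 (adjusted p = 0.66). Tlr7 did not pass with the slide as a block, and within slide 1 Spib alone passed (Cox6a2 at 0.0506, the others at 0.0873 to 0.181). The summed linear signal of the 6 plasmacytoid markers was 87.6 to 143.7 in control and 159.2 to 181.5 in B220+ cells, of which Irf8 passed; the part of such cells in the results was not tested.

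Of 12 conventional dendritic-cell genes 3 rose (25%) and 1 fell (8.33%), with a median of 0.60 (0.50 to 0.73). Batf3, a factor of cross-presenting dendritic cells, read 0.44, 0.17 and 1.49 in control cells and -3.44, -3.56 and -4.96 in B220+ cells (difference -4.69, SE 0.53, adjusted p = 0.00146). Cd83, an activation marker of dendritic and B cells, rose by 6.34 (adjusted p = 0.00807), from values well above background on 1 of 3 control arrays. Clec10a, a lectin of dendritic cells and macrophages, and Flt3 rose by 1.66 and 2.01. Neither passed without control replicate 2 or B220+ replicate 2, which left 1 rise on the list. Within slide 1 Batf3 and Clec10a did not pass (adjusted p = 0.0632 and 0.053). Cd83 read 1.68, -1.16 and -0.45 in Bach2-vector MPPs, overlapping the B220+ values of -0.73, -0.57 and 0.07. Zbtb46, a factor of conventional dendritic cells, differed by -0.12 at its main probe (adjusted p = 0.804). A second Zbtb46 probe, well above background on 1 of 3 control arrays, rose by 3.77 (adjusted p = 0.00513), so the probes disagree.

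Stem-cell and megakaryocyte genes fell where they changed, with Gp9 as the exception. Of 22 stem and multipotent progenitor genes 4 fell (18.2%) and 0 rose (median -0.48, -0.56 to -0.15). Hlf, a factor of stem cells, read 0.26, -0.48 and -0.97 in control cells and -3.32, -3.65 and -3.38 in B220+ cells (difference -3.05, SE 0.36, adjusted p = 0.00178). Mycn, Procr and Meis1 fell by 3.24, 2.82 and 1.39. Without control replicate 2 or 3 or B220+ replicate 1 or 2 Hlf alone of the list passed, and without B220+ replicate 3 there were 7 falls. With the slide as a block Hlf and Mycn passed, and within slide 1 Hlf. The cytokine receptor Kit and the surface marker Cd34 differed by 0.06 and -0.16 without passing. Of 18 erythroid and megakaryocyte genes 3 fell (16.7%) and 1 rose (5.56%). Their median of -0.32 ran from -0.74 to -0.01 with 1 array left out and was 0.17 with the slide as a block, where Gata1, the erythroid factor, also passed (difference 4.43, adjusted p = 0.0492, against 2.80 and 0.157 without the block). Pf4, platelet factor 4, read 2.96, 3.49 and 3.02 in control cells and -2.20, -5.58 and -3.63 in B220+ cells (difference -6.96, SE 0.70, adjusted p = 0.000844). Ppbp, another platelet chemokine, was at least 9.66-fold lower and Car2, a carbonic anhydrase, fell by 2.43 but did not pass within slide 1 (0.0851). Gp9, a platelet glycoprotein, rose by 1.68 but did not pass without control replicate 3 or any of the B220+ replicates (adjusted p of 0.0571 to 0.0993).

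The 12 largest rises and 12 largest falls include genes outside the lists. Fzd10, a Wnt receptor, was at least 63.1-fold higher, Wnt9a, a Wnt ligand, at least 42.7-fold and Slc16a14, a transporter of the monocarboxylate family, at least 37.1-fold, none of them well above background on any control array. Vit, a matrix protein, read -4.25, -5.08 and -3.92 in control cells and 1.61, 2.74 and 1.20 in B220+ cells (difference 6.27, SE 0.44, adjusted p = 0.000196). Ms4a6b, a tetraspanning membrane protein, rose by 6.07 (adjusted p = 0.00169). The others of the 12 were Prg2, Il18r1, Blnk, Dntt, Prss34, Prg3 and Cd83.

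Afp, alpha-fetoprotein, showed the largest fall. It read 3.98, 4.13 and 3.58 in control cells and was not well above background on any B220+ array, so that it was at least 1170.5-fold lower (adjusted p = 0.000161). In Bach2-vector MPPs it read -0.29, -0.53 and -1.97. Ccl24, the chemokine eotaxin-2, read 1.91, 1.48 and 2.05 in control cells and was at least 262-fold lower in B220+ cells (adjusted p = 2.77e-05). Tbxas1, thromboxane synthase, fell by 7.19 (adjusted p = 0.000951) and Ttc39c, a tetratricopeptide repeat protein, by 6.56 (adjusted p = 0.000161). Col4a2, a basement-membrane collagen chain, was at least 54.5-fold lower, Lypd6b at least 32.2-fold, Scarf1, a scavenger receptor, at least 26.8-fold and Cpne8, a copine, at least 24.3-fold. Tfec, Pf4 and Slc7a11 were the other large falls beside Hic1.

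Hic1, a zinc-finger repressor, fell in B220+ cells. It read 3.60, 2.24 and 2.75 in control cells, 5.72, 5.00 and 5.34 in Bach2-vector MPPs and -4.23, -5.02 and -3.24 in B220+ cells. The difference from control was -7.03 (SE 0.50, adjusted p = 0.0002) and from the Bach2-vector MPPs -9.51 (adjusted p = 0.000103), while those MPPs differed from control by 2.49 (adjusted p = 0.0761). No 2 of the 3 groups overlapped. Prss34, Ms4a6b, Tbxas1 and Tfec did not pass within slide 1; the other genes among these 24 passed there and without each of the 6 arrays wherever they could be tested. Of the 1532 genes that passed, 61 carry only accession-like names and are not described.

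**Figure D5:**
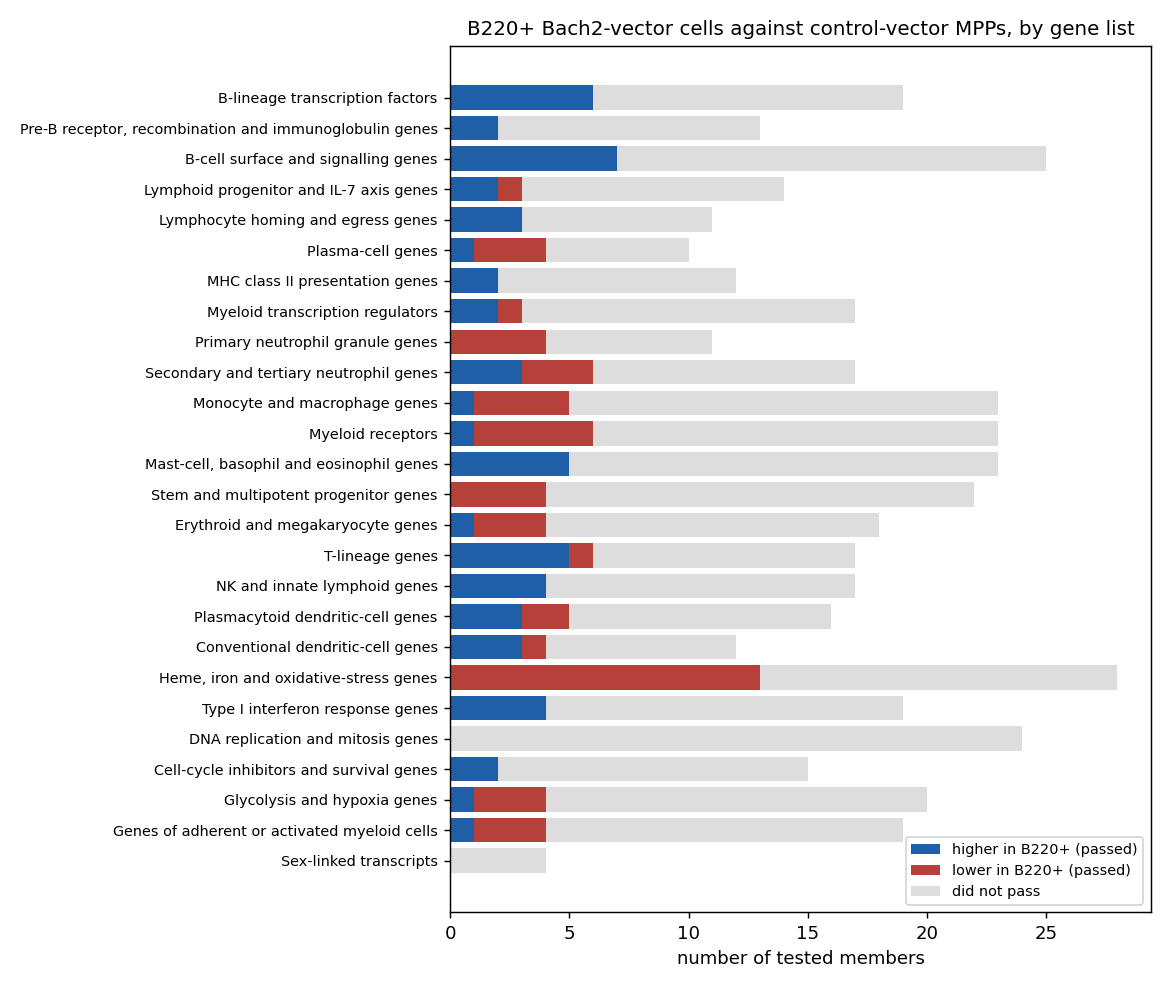
Number of tested members of each of 26 gene lists that were higher (blue) or lower (red) in B220+ cells at an adjusted p under 0.05, or did not pass (grey). The 13 falls among 28 heme, iron and oxidative-stress genes form the longest coloured bar, and the 24 tested DNA replication and mitosis genes gave none.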

How the data were processed

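Total RNA, amplified in 2 rounds and labelled with Cy3, was hybridised to single-colour arrays. The deposited intensity values were background-corrected and processed spot signals, per the file headers from Agilent Feature Extraction 10.7.3.1; the submitters' processing notes name version 9.1. From the processed signals log2 values were computed, less the 75th percentile of the array, taken without control spots; the deposited files hold no log2 values. Spots marked as outliers were dropped, and repeat spots of 1 probe were averaged.

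Of 55681 probes 26413 were named through RefSeq accessions (20018 symbols), and the probe of highest mean on the 9 MPP arrays stood for each gene. Probes had to be well above background on at least 3 of the 6 arrays and hold at least 2 values per group. The 9 arrays were fitted with limma 3.58.1 (lmFit, eBayes) in R 4.3.3 (data.table package, version 1.17.8), and p-values adjusted by Benjamini-Hochberg over 40332 probes. The fit was tested on simulated data with independent noise and no slide effect. That test cannot show how slide or a deviating replicate affects the calls. Python 3.11.15, numpy 2.4.6, pandas 2.3.3 and matplotlib 3.10.9 did the rest. A probe dim on all arrays of a group has only a bound, given as "at least N-fold"; medians of all 26 lists were the same with bounds in place of fitted values. The number of arrays limits the precision.

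The samples, lists and tests were chosen with earlier results of these data known. The rule names Bach1, Bach2, the 12 largest rises and falls that separated the groups, 4 members per list with the smallest p, all members of the 3 B-lineage lists, and cell type markers; further list members were named after their values were seen, and a few genes are not reported here. The closing section gives the effect of other scalings, filters, variance models, slide and replicate terms and of leaving out arrays. Normexp was run on spot medians, since the files analysed have no column of spot means.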

Additional observations from a re-analysis of the deposited data

How the results depend on the processing

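Of the counts of passing probes (2822), those under 19 alternatives kept within 1.5 times except as follows: 1854 when the fit held only the 6 arrays compared, 751 within slide 1, and 980 to 3648 when 1 array was left out. Without control replicate 2, control replicate 3, B220+ replicate 1 and B220+ replicate 2 it was 980, 1349, 1879 and 1520. Without control replicate 1 and B220+ replicate 3 it was higher, at 2920 and 3648. Each of these fits held 1 array fewer, and why their counts differed was not tested. Normexp on spot medians, added after seeing the data, gave 3475 and quantile normalization 3124. The deposited value table gave the same 2822. Deviations of same-numbered control and B220+ arrays correlated at 0.093, -0.007 and -0.057, while Y-linked genes were near background in replicate 3 of each group, so whether the numbers mark shared experiments was not settled; with the replicate block 3660 probes passed, and Cst7, Cdkn2c and Gbp3 did not (adjusted p of 0.0517 to 0.0549). Of 219 genes tested among those named or listed as passing, 121 passed. Of these, 92 could be tested in all 19 alternatives and 34 of them passed in each; 61 were lost within slide 1, 21 with the slide as a block and 20 with each array's median as the scale, and none reversed. Rises and falls of whole lists must be read against the shift of about 0.31 that the choice of scale brings: the medians of the primary granule, myeloid regulator, lymphoid progenitor, plasmacytoid, pre-B receptor and DNA replication lists changed sign with it. Precision was limited by 3 arrays per group and by signal over background: 123 genes that fell went from 3 of 3 control arrays above background to 0 of 3 B220+ arrays, and so have bounds in place of folds.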

Other observations

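Of 24 DNA replication and mitosis genes 0 passed in limma, against 9.48% of all genes, and the median was -0.26, against -0.27 for all genes; with each array's median as the scale it was 0.05. Mki67, the proliferation marker, differed by 0.08 (adjusted p = 0.87), the replication clamp gene Pcna by -0.64 (adjusted p = 0.34) and Top2a, a topoisomerase of dividing cells, by 0.59 (adjusted p = 0.28). Of 15 inhibitors and survival genes 2 rose (13.3%), Bbc3, which encodes the death-promoting protein PUMA, by 1.64 and Cdkn2c, a cyclin-dependent kinase inhibitor, by 1.76. Neither passed without control replicate 2 or 3 or B220+ replicate 2, with the slide as a block or within slide 1.

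Of 20 glycolysis and hypoxia genes 3 fell (15%) and 1 rose (5%), with a median of -0.58. Vegfa, the vascular growth factor, read 1.57, 1.36 and 1.20 in control cells and 3.90, 4.50 and 3.73 in B220+ cells (difference 2.67, SE 0.29, adjusted p = 0.00131). A second Vegfa probe, well above background on all 6 arrays, overlapped between groups (difference 0.41, adjusted p = 0.66). Slc2a1, the glucose transporter, fell by 1.56, Aldoa, aldolase, by 1.61 and Egln3, an oxygen sensor, by 1.57, and none of these 3 passed with each array's median as the scale; within slide 1 Aldoa and Egln3 did not (adjusted p = 0.127 and 0.0738). Ldha and Gapdh differed by -0.22 and -0.19 at their main probes and did not pass. Further Ldha probes differed by -1.27 and -0.73 and further Gapdh probes by -1.01 to -0.43, also without passing. Of 19 genes of adherent or activated myeloid cells 3 fell (15.8%) and 1 rose (5.26%), with a median of -1.02. Plaur, the urokinase receptor, read 3.33, 3.06 and 2.92 in control cells and 0.50, 0.15 and 0.76 in B220+ cells (difference -2.63, SE 0.26, adjusted p = 0.000754). Spp1, osteopontin, rose by 2.24, and Ptgs2, an inducible cyclooxygenase, fell by 3.53 but did not pass without control replicate 2 (adjusted p = 0.0593) or 3 (0.0555), with the slide as a block (0.0684) or within slide 1 (0.232).

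Of 19 type I interferon response genes 4 rose (21.1%, against 3.81% of all genes) and 0 fell (median 0.61). Stat2, a factor of interferon signalling, rose by 1.43 (adjusted p = 0.0106), and Ifih1, Gbp3 and Irf7 by 1.27, 1.09 and 2.29. Without control replicate 2 or B220+ replicate 1 or 2, or within slide 1, Stat2 alone passed, and with the slide as a block Stat2 and Irf7 did. A second Ifih1 probe differed by 0.80 (adjusted p = 0.17). The 4 tested sex-linked genes did not differ beyond their spread between the groups, but the Y-linked genes did between replicates: Ddx3y and Eif2s3y were near background in replicate 3 of the control, Bach2-vector and B220+ groups and not in replicates 1 and 2.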
